A study of Homo sapiens with 10 samples.

Results

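SYK and 8 genes of the JAK-STAT pathway were examined in the transcriptomes of a basal-like and a luminal breast cancer cell line exposed to the kinase inhibitor PKC412. The members were the rows whose symbol was SYK, JAK1, JAK2, IL6ST, STAT3, STAT5A, STAT5B, STAT6 or SOCS3, and all 9 were found among the 23426 genes of every sample. MDA-MB-468 is an established triple-negative, basal-like line and ZR75-1 an established estrogen receptor-positive, luminal line. Cells of each line had been kept for 6 h in the solvent DMSO (2 samples per line) or in 1 μM PKC412 (3 samples per line), which makes 10 samples. The dose is that of the labels and the methods, and figure legends of the study give a lower one. PKC412, also named midostaurin, is a staurosporine derivative that inhibits many kinases. Each subtype was represented by 1 line, so that subtype and line cannot be told apart. The values were FPKM (fragments per kilobase of transcript, scaled to the mapped fragments of the sample), which allow levels of different genes to be compared per length. Transcripts only were measured, so the values give no kinase activity and no STAT phosphorylation.

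SYK is a cytoplasmic tyrosine kinase whose paired SH2 domains bind phosphorylated tyrosine motifs on immune receptors and their adaptors, and it is best known for signalling below the B-cell and Fc receptors. In the JAK-STAT pathway, a cytokine brings receptor chains together, the JAK kinases bound to those chains phosphorylate STAT proteins, and the STAT dimers then enter the nucleus and activate genes. SOCS3 is 1 of these genes, and its product binds gp130 (encoded by IL6ST) and the JAKs and limits the signal. The study asked about kinases that basal-like cells depend on, and the comparison made here asks how the transcripts of both kinds of gene differed by line and by agent.

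The samples followed the labels of their lines, and the label of the agent was not checked by these markers. Of 12 basal markers, 10 were higher in MDA-MB-468 than in ZR75-1 in DMSO (adjusted p under 0.05 in limma, a linear model fitted to all genes) and CDH3 was lower. In ZR75-1, 12 of 14 luminal markers were higher. Of all genes, 26.5% were higher and 15.9% lower in MDA-MB-468. KRT5 was at a mean of 969 FPKM (MDA-MB-468) and 0.150 FPKM (ZR75-1), and TFF1 at 3.35 and 4809 FPKM. Read counts are not part of these values, so depth was unknown and precision came from the spread between samples. The samples also differed in how FPKM, relative to the mean of the line, ran along the GC content of the genes, with a slope from -0.356 to 0.373 log2 units per 10 points of GC. Without a change of scale, the median of 16071 genes tested lay at 0.11 (PKC412 minus DMSO in MDA-MB-468), 0.07 (in ZR75-1), 0.11 (MDA-MB-468 minus ZR75-1 in DMSO) and 0.19 (in PKC412) on the log2 scale. After a rescaling of the samples by median ratios these medians were -0.02, -0.01, 0.00 and 0.01, and members whose call or direction changed with it are named with their values. The comparisons of agents and of lines share the DMSO samples, so a value that is high or low in one of them enters several comparisons.

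Without rescaling, SYK had the largest difference between the lines among the members on the scale of log2(FPKM + 1). In MDA-MB-468 it was at 5.78 and 6.26 FPKM in the DMSO samples and at 9.44, 7.48 and 8.79 FPKM with PKC412. The ZR75-1 samples had 1.32 and 1.49 FPKM in DMSO and 1.67, 1.63 and 2.27 FPKM in PKC412. Every MDA-MB-468 sample was above every ZR75-1 sample, and within each line every PKC412 sample was above every DMSO sample. Of all genes, 42.3% were higher in MDA-MB-468 without overlap in DMSO and 40.3% in PKC412. With PKC412, 39.6% were higher without overlap in MDA-MB-468 and 14.8% in ZR75-1. Mean SYK was 4.28-fold higher in MDA-MB-468 in DMSO, a difference of 1.54 ± 0.18 in log2(FPKM + 1) (SE, adjusted p = 0.000222), and 4.62-fold higher in PKC412, a difference of 1.75 ± 0.15 (adjusted p = 2.24e-05). Of all genes tested, 42.4% passed the threshold between the lines in DMSO and 58.6% in PKC412, so passing it was common. The rescaled differences of SYK were 1.35 in DMSO and 1.38 in PKC412, and both passed. Those of STAT6 were -1.31 and -1.70, so that STAT6 had the larger rescaled difference in PKC412. The differences of SYK by agent were smaller, 0.44 ± 0.16 in MDA-MB-468 (adjusted p = 0.265) and 0.24 ± 0.16 in ZR75-1 (adjusted p = 0.644). Neither passed, and after rescaling these differences were 0.15 and 0.11. The order of the 4 groups was thus MDA-MB-468 with PKC412, MDA-MB-468 with DMSO, ZR75-1 with PKC412 and ZR75-1 with DMSO, and neighbours that differed in agent alone did not differ beyond the test's threshold.

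**Figure D1:**
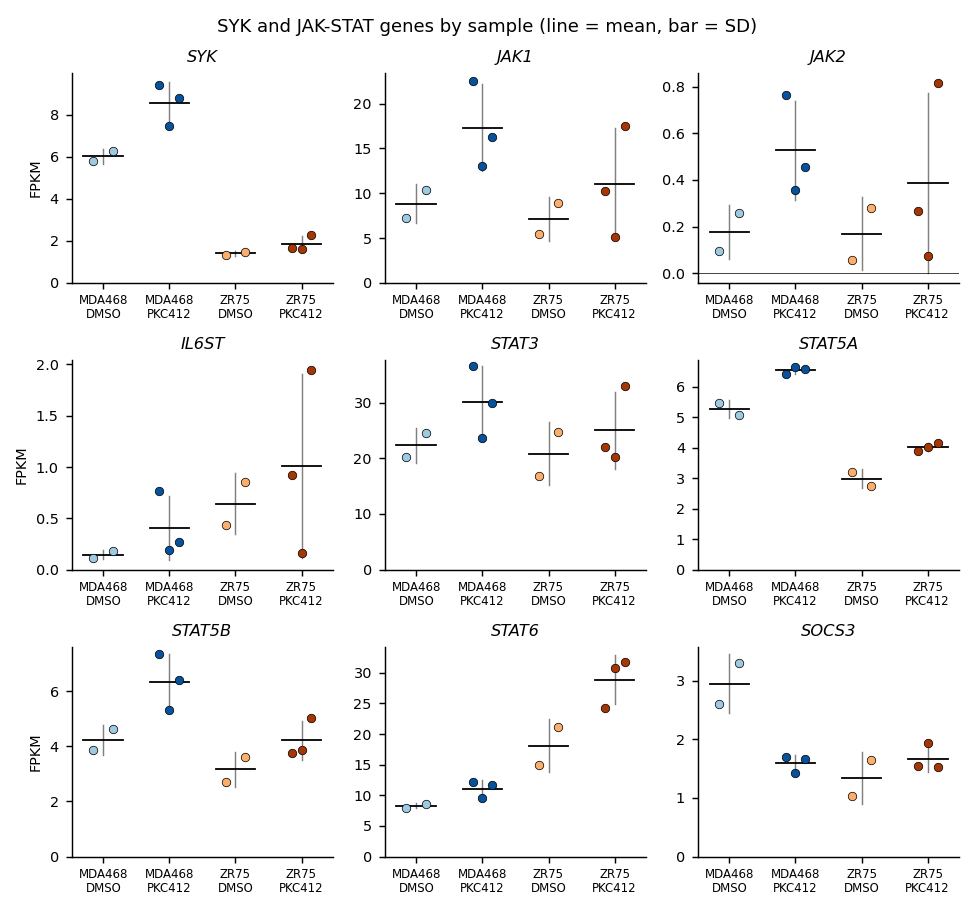
FPKM of the 9 members (vertical axis, from 0, 1 scale per gene) in the 10 samples, grouped by line (MDA468 is MDA-MB-468 and ZR75 is ZR75-1) and agent. Points are samples, horizontal lines group means and grey bars SD. SYK lies between 5.78 and 9.44 in MDA-MB-468 and between 1.32 and 2.27 in ZR75-1, STAT6 is higher in every ZR75-1 sample, and JAK1 and IL6ST spread widely within the PKC412 groups.

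SYK lies on chromosome 9 (GRCh38, 90801787 to 90898549, plus strand, GENCODE 29). The RefSeq promoter table (GRCh38.p14) holds 3 windows for it, each reaching from 250 bases before an annotated start to 50 bases after. The 250 bases before the start nearest to the GENCODE gene start are shown because SYK is the member with the largest difference between the lines on that scale. They lie at chr9:90801569-90801818 on the plus strand, before the RefSeq start and with their end inside the GENCODE gene, and CG dinucleotides are in capitals.
SYK: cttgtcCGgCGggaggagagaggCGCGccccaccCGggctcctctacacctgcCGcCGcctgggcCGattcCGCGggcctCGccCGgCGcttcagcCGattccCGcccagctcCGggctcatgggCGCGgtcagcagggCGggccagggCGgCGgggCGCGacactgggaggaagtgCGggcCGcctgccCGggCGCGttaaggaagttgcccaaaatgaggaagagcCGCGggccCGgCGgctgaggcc
The stretch holds 32 CG dinucleotides, against a median of 11 over the 35116 windows of the table, and 90.5% of windows held fewer. The 3 windows of SYK held from 2 to 32. JAK1, JAK2 and STAT5B had windows with more, at 35, 36 and 47. Promoter methylation was not measured in these files.

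The genes whose pattern was most like that of SYK were MSN, TEF, FBXO10, DNMT1 and TBC1D22B, with a Pearson correlation of log2(FPKM + 1) of 0.997 to 0.998 over the 10 samples. MSN, which links the actin cortex to the membrane, was at a mean of 32.6 and 51.9 FPKM in MDA-MB-468 with DMSO and PKC412, and at 2.79 and 4.43 FPKM in ZR75-1. These points fall into the 2 lines, and 1483 of 11143 genes with a mean FPKM above 1 had a correlation above 0.95, so that the likeness mostly restates the line.

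Partners of SYK passed between the lines in both directions. In DMSO, 7 of the 26 tested genes of a list of 36 SYK partners were higher in MDA-MB-468 and 3 were lower, beside 26.5% and 15.9% of all genes. PLCG2, the phospholipase that SYK phosphorylates in B cells, had means of 7.62 FPKM (MDA-MB-468) and 0.870 FPKM (ZR75-1). CLEC7A, the receptor dectin-1, was at 3.72 and 0.354 FPKM, and the adaptor GAB2 at 4.35 and 0.869 FPKM. The exchange factor VAV2 and the kinase SRC were lower in MDA-MB-468, at 5.11 against 11.1 FPKM and at 4.04 against 8.55 FPKM. SH3BP2, an adaptor bound by SYK, was at 2.17 against 3.69 FPKM, a call that was lost with the replicate block (adjusted p = 0.0674) and held in 5 of 10 fits without 1 sample (adjusted p up to 0.142). In PKC412 15 of the 26 were higher in MDA-MB-468 and 4 lower, beside 37% and 21.6% of all genes. None of the 26 passed for the agent in either line, beside 1.26% of all genes in MDA-MB-468 and 0.946% in ZR75-1.

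Because SYK is abundant in blood cells, 15 haematopoietic markers were examined. CD3D, MS4A1 and HBB were listed at 0 in every sample, and the leukocyte antigen PTPRC was at 0 in both DMSO groups. The summed FPKM of the 15 was 22.3 to 25.7 in MDA-MB-468 with DMSO, 14.2 to 16.2 with PKC412, and 1.67 to 2.21 in ZR75-1. In MDA-MB-468 CD14 made up most of it, at a DMSO mean of 21.7 FPKM against 0.994 FPKM for ZR75-1, and CSF1R followed at 2.08 against 0.00335 FPKM. Both were higher in MDA-MB-468, whereas ITGAM (0.0390 and 0.547 FPKM) and IKZF1 (0.00230 and 0.316 FPKM) were lower. These were 4 of the 5 markers tested, beside 42.4% of all genes that passed in DMSO. The part of such expression in the line difference of SYK was not tested.

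JAK1 and JAK2 showed no difference that passed by agent or by line. JAK1, which serves receptors of many cytokine families, was at 7.27 and 10.4 FPKM in MDA-MB-468 with DMSO and at 22.5, 13 and 16.3 FPKM with PKC412, with no overlap. Of all genes, 39.6% were higher with PKC412 without overlap in that line. The ZR75-1 samples had 5.41 and 8.87 FPKM with DMSO and 10.2, 5.10 and 17.5 FPKM with PKC412, where the groups overlapped. The ratio of means was 1.96 in MDA-MB-468, and the difference of 0.88 ± 0.45 had an interval from -0.15 to 1.92 (adjusted p = 0.327). In ZR75-1 it was 0.45 ± 0.45 (adjusted p = 0.774). Between the lines in PKC412 the difference was 0.72 ± 0.40 (adjusted p = 0.157), and without PKC412 replicate 3 of ZR75-1 it was 1.11 and passed (adjusted p = 0.0281). JAK1 has a GC content of 46.2%, and its lowest values, 7.27, 5.41 and 5.10 FPKM, were in the 3 samples with GC slopes of 0.373, 0.314 and 0.342. After adjustment for GC content and length the differences were 0.44 and 0.16, with SE of 0.19. The part of GC content in the spread of JAK1 was not tested.

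JAK2, the kinase of the hormone and haematopoietic cytokine receptors, was near the limit of 0.1 FPKM used for expression. It was at 0.0943 and 0.258 FPKM in MDA-MB-468 with DMSO and at 0.766, 0.359 and 0.457 FPKM with PKC412. In ZR75-1, JAK2 had 0.0570 and 0.280 FPKM with DMSO and was at 0.268, 0.0715 and 0.818 FPKM with PKC412, so that its groups overlapped there. The differences by agent were 0.37 ± 0.22 and 0.22 ± 0.22 (adjusted p = 0.362 and 0.772). In DMSO the lines had means of 0.176 and 0.169 FPKM, with an interval of the difference from -0.54 to 0.56.

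Of the other JAKs and STATs, TYK2 had the largest difference between the lines. This kinase, which pairs with JAK1 or JAK2 on interferon and interleukin receptors, was at 41.3 and 40.0 FPKM in MDA-MB-468 with DMSO and at 5.79 and 5.63 FPKM in ZR75-1. The difference was 2.63 ± 0.12 (adjusted p = 1.75e-06). TYK2 and JAK3 were the 2 of 5 genes in that list that passed between the lines, both higher in MDA-MB-468, beside 42.4% of all genes in DMSO and 58.6% in PKC412, and none of the 5 passed for the agent.

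The shared receptor chain was low in both lines. IL6ST was at 0.116 and 0.179 FPKM in MDA-MB-468 with DMSO and at 0.767, 0.191 and 0.273 FPKM with PKC412. Its values in ZR75-1 were 0.431 and 0.851 FPKM with DMSO and 0.918, 0.162 and 1.95 FPKM with PKC412, and the last group held both the lowest and the highest value of the line. The DMSO samples of the lines did not overlap, with ZR75-1 higher, as for 27.3% of all genes. The difference of -0.50 ± 0.39 (MDA-MB-468 minus ZR75-1) did not pass (adjusted p = 0.341). In PKC412 it was -0.43 ± 0.31 (adjusted p = 0.266), and without PKC412 replicate 2 of ZR75-1 -0.78, which passed (adjusted p = 0.0273). IL6ST has the lowest GC content of the members, 36.6%. After adjustment for GC content and length its line differences were -0.62 in DMSO and -0.54 in PKC412, and both passed (adjusted p = 0.033 and 0.021). Of its 50-base words, 10.3% also occur in transcripts of other genes, among them the pseudogene IL6STP1, so its FPKM are uncertain.

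Of 5 tested chains that pair with gp130, 3 passed between the lines in each agent, beside 42.4% (DMSO) and 58.6% (PKC412) of all genes. IL11RA, the interleukin-11 receptor, had DMSO means of 10.1 FPKM (MDA-MB-468) and 0.977 FPKM (ZR75-1) (difference 2.50 ± 0.16, adjusted p = 8.33e-06). IL27RA was at 13.5 and 3.03 FPKM. IL6R, the interleukin-6 receptor, ran the other way, at 0.229 and 1.89 FPKM (difference -1.20 ± 0.26, adjusted p = 0.00602). LIFR and OSMR did not pass, with differences of 0.04 ± 0.09 and 0.40 ± 0.35 in DMSO (adjusted p = 0.738 and 0.412).

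The cytokines that act through gp130 held the only genes of the ligand and receptor lists that passed for PKC412 in ZR75-1. Of all genes, 0.946% did. LIF fell there from 5.85 and 7.13 FPKM to 2.22, 2.16 and 3.03 FPKM, a difference of -1.11 ± 0.19 (adjusted p = 0.0462), and it was at 2.83 and 2.53 against 3.58, 2.38 and 3.16 FPKM in MDA-MB-468. This call was near the threshold and was lost without any 1 of the 10 samples (adjusted p from 0.0514 to 0.172). IL6 rose in ZR75-1 from 0.0361 FPKM and a listed 0 to 0.905, 0.589 and 0.984 FPKM, a difference of 0.84 ± 0.09 (adjusted p = 0.0065). In MDA-MB-468 IL6 went from 0.0619 and 0.0797 to 0.330, 0.354 and 0.361 FPKM, and the difference of 0.33 ± 0.09 did not pass (adjusted p = 0.162). The 2 responses of IL6 differed by -0.50 ± 0.13 and those of LIF by 1.24 ± 0.27, which did not pass (adjusted p = 0.286 and 0.187). When replicate numbers entered the model as a block, neither gene passed (adjusted p = 0.637 for IL6 and 1 for LIF), and IL6 also lost its call without DMSO replicate 1 of ZR75-1 (adjusted p = 0.0512). Between the lines in DMSO, LIF and EBI3 were lower in MDA-MB-468, 2 of the 8 cytokines tested, beside 15.9% of all genes.

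**Figure D2:**
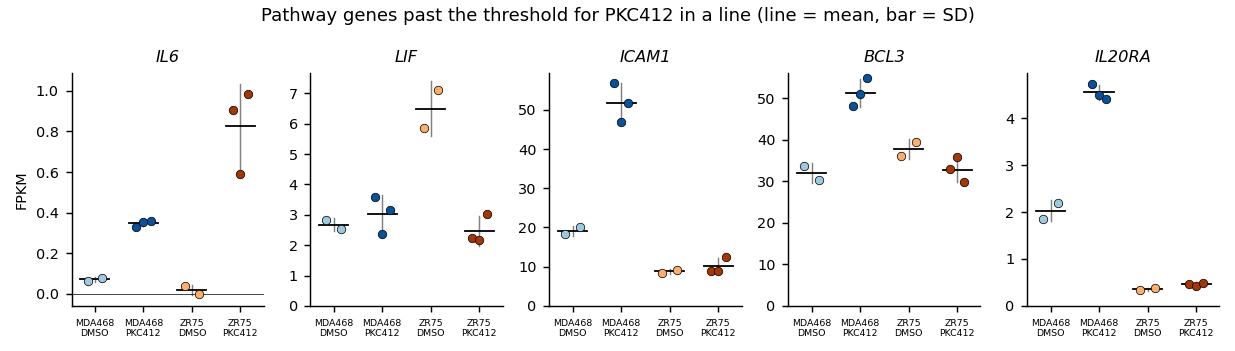
FPKM (vertical axis, from 0, 1 scale per gene) of the 5 genes of the pathway lists that passed the limma threshold for PKC412 in a line. Points are samples, lines means and grey bars SD. IL6 is at 0.589 to 0.984 in ZR75-1 with PKC412 and at or below 0.0361 with DMSO, LIF is lower with PKC412 in ZR75-1, and ICAM1, BCL3 and IL20RA are higher with PKC412 in MDA-MB-468.

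Of 22 other JAK-coupled receptors tested, 10 were higher and 1 was lower in MDA-MB-468 with DMSO, beside 26.5% and 15.9% of all genes. CSF2RA, the GM-CSF receptor, had means of 5.54 FPKM (MDA-MB-468) and 0.0631 FPKM (ZR75-1), and the interferon receptor IFNAR2 at 15.3 and 3.40 FPKM. PRLR, the prolactin receptor, was lower at 0.330 against 1.64 FPKM (difference -0.95, adjusted p = 0.0353), a call lost with no filter on low FPKM (adjusted p = 0.0508) and with the replicate block (adjusted p = 0.0641). It held in 3 of 10 fits without 1 sample, and without DMSO replicate 2 of ZR75-1 the difference was -0.61 (adjusted p = 0.191). For the agent, 1.26% of all genes passed in MDA-MB-468 and 0.946% in ZR75-1. IL20RA, a chain of the interleukin-20 receptor, was the 1 receptor that passed for the agent. It rose in MDA-MB-468 from 1.86 and 2.19 to 4.74, 4.49 and 4.41 FPKM (difference 0.88 ± 0.11, adjusted p = 0.011). In ZR75-1 it was at 0.333 and 0.381 against 0.476, 0.413 and 0.497 FPKM. The difference of its responses was 0.77 ± 0.16 and did not pass (adjusted p = 0.15). The call in MDA-MB-468 was lost with a pseudocount of 0.1 (adjusted p = 0.0523) and after adjustment for GC content and length (0.51, adjusted p = 0.0587). It was also lost with the replicate block (adjusted p = 0.683) and without either DMSO sample of MDA-MB-468 (adjusted p = 0.115 and 0.0541).

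STAT3, which transduces gp130 signals, was the most abundant member in both lines with DMSO. It was at 20.2 and 24.5 FPKM in MDA-MB-468 with DMSO and at 36.5, 23.6 and 30 FPKM with PKC412. STAT3 in ZR75-1 was at 16.8 and 24.7 FPKM with DMSO and at 22, 20.2 and 32.9 FPKM with PKC412. The groups overlapped in every comparison of lines and of agents. The line difference in DMSO was 0.12 ± 0.29 with an interval from -0.55 to 0.79, and the rescaled value was -0.18, so its direction depended on the scale. The differences by agent were 0.40 ± 0.27 and 0.25 ± 0.27 (adjusted p = 0.407 and 0.787).

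STAT5A and STAT5B, the STATs of prolactin and growth hormone signalling, were both higher on average in MDA-MB-468. STAT5A was at 5.47 and 5.07 FPKM in MDA-MB-468 with DMSO and at 6.41, 6.65 and 6.60 FPKM with PKC412. STAT5A in ZR75-1 was at 3.22 and 2.76 FPKM with DMSO and at 3.89, 4.04 and 4.17 FPKM with PKC412. Every MDA-MB-468 sample was above every ZR75-1 sample. Of all genes, 42.3% were higher in MDA-MB-468 without overlap in DMSO and 40.3% in PKC412. The line differences of 0.65 ± 0.14 in DMSO and 0.59 ± 0.11 in PKC412 passed (adjusted p = 0.00547 and 0.00246). After rescaling they were 0.41 and 0.22 and did not (adjusted p = 0.234 and 0.403). STAT5A also had the smallest spread within groups with PKC412, with an SD of 0.02 and 0.04 on the log2 scale, against 0.38 and 0.80 for JAK1. By agent, the differences of STAT5A were 0.27 ± 0.13 in MDA-MB-468 and 0.34 ± 0.13 in ZR75-1 (adjusted p = 0.314 and 0.389), and after rescaling the first was -0.02.

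STAT5B was at 3.86 and 4.62 FPKM in MDA-MB-468 with DMSO and at 7.33, 5.30 and 6.39 FPKM with PKC412. STAT5B in ZR75-1 was at 2.72 and 3.60 FPKM with DMSO and at 3.77, 3.85 and 5.01 FPKM with PKC412. It passed between the lines in PKC412 (0.49 ± 0.17, adjusted p = 0.0365) and not in DMSO (0.34 ± 0.21, adjusted p = 0.238). The call in PKC412 was lost after rescaling (0.13, adjusted p = 0.458), with the replicate block (adjusted p = 0.0709) and in 6 of 10 fits that left out 1 sample (adjusted p from 0.0513 to 0.127). In transcript sequence the STAT5 genes share 507 words of 50 bases, 11.9% of those of STAT5A and 10% of those of STAT5B. Reads that lie wholly inside these stretches cannot be told apart. The STAT5 genes are neighbours on chromosome 17 together with STAT3, which lies next to STAT5A.

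STAT6, the STAT of interleukin-4 and interleukin-13, was the 1 member that passed in the opposite direction. It was at 7.99 and 8.62 FPKM in MDA-MB-468 with DMSO and at 12.1, 9.58 and 11.6 FPKM with PKC412. STAT6 in ZR75-1 was at 15 and 21.1 FPKM with DMSO and at 24.2, 30.7 and 31.7 FPKM with PKC412. Every ZR75-1 sample was above every MDA-MB-468 sample, and within each line every PKC412 sample was above every DMSO sample. Such separation was common. By line, 27.3% of all genes were lower in MDA-MB-468 without overlap in DMSO, and 24.2% were in PKC412. By agent, 14.8% of all genes (ZR75-1) and 39.6% (MDA-MB-468) were higher with PKC412 without overlap. The line differences were -1.02 ± 0.20 in DMSO and -1.30 ± 0.16 in PKC412 (MDA-MB-468 minus ZR75-1, adjusted p = 0.00394 and 0.000231), and both passed in all 16 alternative settings. By agent, STAT6 had the largest difference of the members in ZR75-1 on the scale of log2(FPKM + 1), 0.66 ± 0.18, with an interval from 0.24 to 1.08, and it did not pass over all genes (adjusted p = 0.229). In MDA-MB-468 it was 0.37 ± 0.18 (adjusted p = 0.324), and the 2 responses differed by -0.29 ± 0.26 (adjusted p = 0.951). STAT6 shares 20 of its 50-base words with NAB2, its neighbour.

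SOCS3, the feedback inhibitor, was the 1 member with a fitted difference by agent below 0, in MDA-MB-468. It was at 2.60 and 3.30 FPKM there with DMSO and at 1.69, 1.43 and 1.66 FPKM with PKC412, with no overlap. Of all genes, 16.3% were lower with PKC412 without overlap in that line. SOCS3 in ZR75-1 was at 1.04 and 1.65 FPKM with DMSO and at 1.54, 1.94 and 1.53 FPKM with PKC412, where the groups overlapped. The difference in MDA-MB-468 was -0.60 ± 0.17, or a ratio of 0.539, with an interval from -0.99 to -0.22. It did not pass over all genes (adjusted p = 0.166, from 0.0964 to 0.683 over 16 alternatives), although its sign was negative in all of them. In ZR75-1 the difference was 0.20 ± 0.17 (adjusted p = 0.718). The test of the 2 responses gave -0.80 ± 0.24 and did not pass (adjusted p = 0.403). SOCS3 was higher in MDA-MB-468 than in ZR75-1 in DMSO, by 0.76 ± 0.18 or 2.2-fold (adjusted p = 0.0102), and in PKC412 the means were 1.59 and 1.67 FPKM (difference -0.04 ± 0.15, adjusted p = 0.836). The DMSO call was lost after rescaling (0.58, adjusted p = 0.0527), without DMSO replicate 2 of MDA-MB-468 (0.63, adjusted p = 0.0743) and without DMSO replicate 1 of ZR75-1 (0.57, adjusted p = 0.0651).

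STAT dimers bind a palindrome of TTC and GAA that are parted by 2 to 4 bases, and such letters were searched in the 19 promoter windows of the 9 members. The form TTCNNNGAA, the spacing most STATs prefer, was in none of the 19 and in 7.66% of all 35116 windows. TTCNNGAA was in 3 of the members' windows (7.74% of all) and TTCNNNNGAA in 1 (6.44% of all). Each reads the same on both strands. The 4 matches are shown with flanks, matched letters in capitals, because they are the places before the members' starts where such letters occur. They begin 225 bases before a start of JAK1 (chr1:64966741-64966799, minus strand), 131 before that of STAT3 (chr17:42388540-42388599, minus), 215 before a start of SOCS3 (chr17:78361107-78361166, minus) and 229 before a start of STAT5A (chr17:42287189-42287245, plus). The SOCS3 window with the match (chr17:78360876-78361175) lies wholly upstream of the GENCODE gene, whose 5' end is at 78360077.
JAK1: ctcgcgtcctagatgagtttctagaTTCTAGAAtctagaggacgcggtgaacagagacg
STAT3: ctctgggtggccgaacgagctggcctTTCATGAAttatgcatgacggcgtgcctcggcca
SOCS3: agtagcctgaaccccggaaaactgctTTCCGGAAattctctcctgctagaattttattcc
STAT5A: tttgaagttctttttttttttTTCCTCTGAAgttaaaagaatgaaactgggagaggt
A match is a description of the letters, and binding was not measured in these files.

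By agent, no member passed in either line. In limma 0 of 9 passed in MDA-MB-468, where 1.26% of all genes did, 0 of 9 in ZR75-1, where 0.946% did, and 0 of 9 for the difference of the responses, where 0.268% did. At an unadjusted p under 0.05 there were 3, 2 and 1 of 9, beside 2635, 1794 and 1133 of 16071 genes. In MDA-MB-468 8 members had a fitted difference above 0 (median 0.37), and in ZR75-1 9 had (median 0.25). Of all genes 64.9% and 65.1% had, with medians of 0.11 and 0.07. In MDA-MB-468 all PKC412 samples exceeded all DMSO samples for 7 members, which was the case for 39.6% of all genes, and in ZR75-1 for 4 members, beside 14.8%. After rescaling, 7 and 9 members were above 0, with medians of 0.15 and 0.17, and 5 and 1 had PKC412 samples that all exceeded the DMSO samples, beside 25.1% and 10.3% of all genes. The study used a threshold of 3-fold, applied here to the ratio of mean FPKM, and 0 of 9 members met it in either line, where 7.21% of genes in MDA-MB-468 and 4.09% in ZR75-1 did. JAK2 and IL6ST in MDA-MB-468 came nearest, with ratios of 2.99 and 2.78. Both reached 3 when single samples were left out, with ratios from 2.04 to 5.59 for JAK2 and 1.57 to 3.54 for IL6ST, and JAK2 in ZR75-1 ranged from 1.01 to 6.77, so such ratios of low FPKM rest on single samples.

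**Figure D3:**
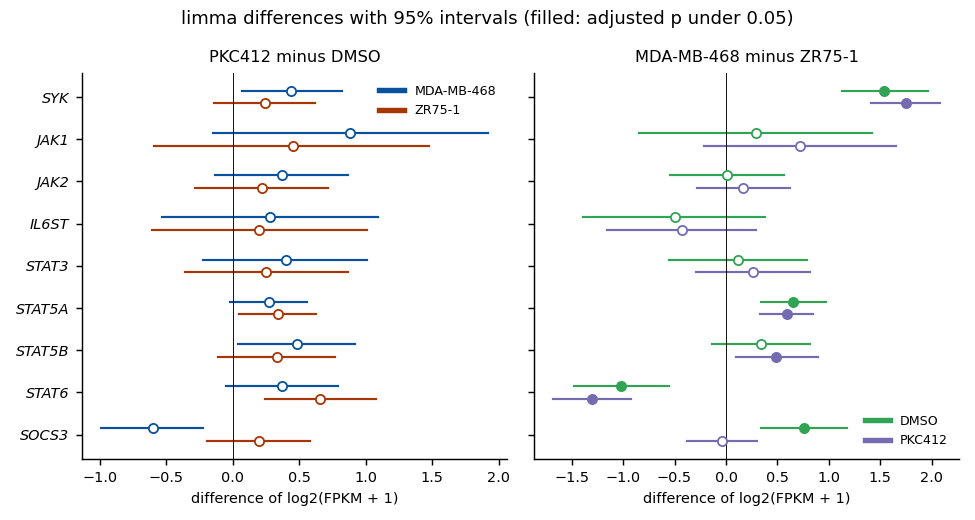
Differences in log2(FPKM + 1) (horizontal axis) of the 9 members for PKC412 minus DMSO in each line (left) and MDA-MB-468 minus ZR75-1 in each agent (right), with 95% limma intervals. Filled points passed an adjusted p of 0.05 over 16071 genes. No point is filled on the left. On the right SYK, STAT5A and STAT6 are filled in both agents, SOCS3 in DMSO and STAT5B in PKC412.

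By line, 4 of 9 members passed in each agent. In DMSO, SYK, STAT5A and SOCS3 were higher and STAT6 was lower in MDA-MB-468. In PKC412, SYK, STAT5A and STAT5B were higher and STAT6 was lower. Such a count is near what all genes show, since 42.4% and 58.6% of them passed. The medians of the members, 0.29 and 0.26, lay beside 0.11 and 0.19 for all genes. With rescaling 2 of 9 passed in each agent, SYK and STAT6.

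The levels of some members ran with the GC slope of the samples. In MDA-MB-468 the order of the samples by JAK1, from 22.5 down to 7.27 FPKM, was their order by slope, from -0.287 up to 0.373. SYK, JAK2, IL6ST, STAT5B and STAT6 had the same order, and STAT3, STAT5A and SOCS3 did not. It was also the order of the samples by median ratio, from 1.407 down to 0.948, so slope and scale ran together in this line. In ZR75-1 JAK1 was highest at the slope of -0.356 and lowest at 0.342, and SYK did not keep the order. The DMSO samples of MDA-MB-468 had slopes of 0.373 and 0.057 and the PKC412 samples slopes of -0.287, -0.024 and -0.119, so slope and agent ran together there. In ZR75-1 the slopes were 0.314 and -0.192 with DMSO and -0.107, 0.342 and -0.356 with PKC412, and the groups overlapped. After adjustment for GC content and length the members' median difference by agent was 0.18 for MDA-MB-468 and 0.14 for ZR75-1. The median of all genes was then 0.01 in each line. SOCS3 in MDA-MB-468 was -0.56 after the adjustment and STAT6 in ZR75-1 0.45 (adjusted p = 0.0964 and 0.0961). The part of the slope in the differences by agent was not tested.

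**Figure D4:**
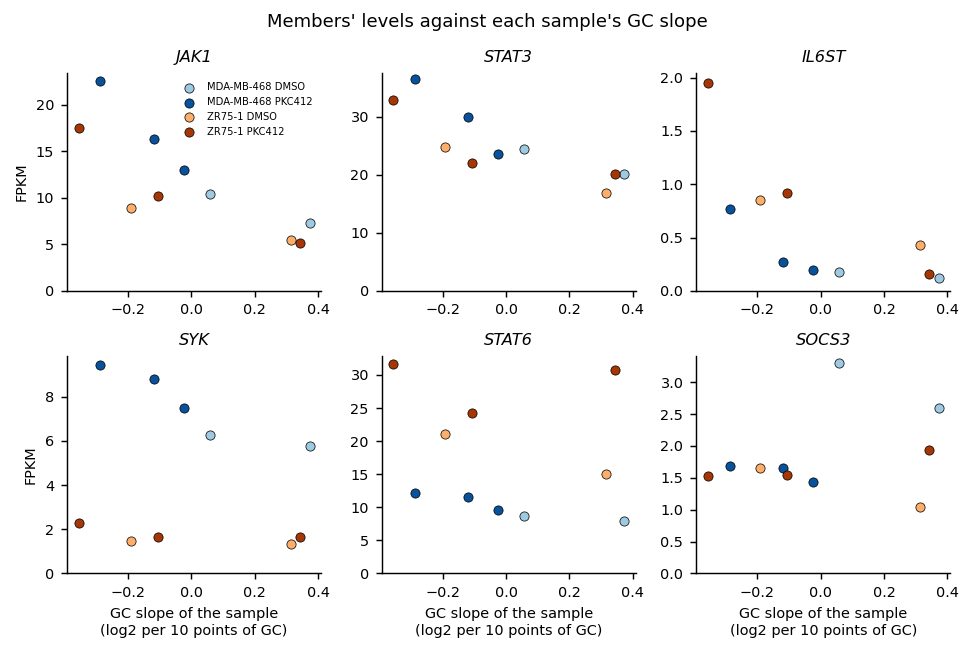
FPKM of 6 members (vertical axis, from 0) against the GC slope of each sample (horizontal axis, log2 units per 10 points of GC, relative to the mean of the sample's line). Colours give line and agent. JAK1 is at 22.5 FPKM at a slope of -0.287 and at 5.10 to 7.27 FPKM at slopes above 0.3, and SOCS3 shows no such order.

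Inhibitors of the pathway other than SOCS3 were also examined. Of 16 tested, none passed for the agent in either line, beside 1.26% and 0.946% of all genes. In DMSO 2 were higher and 3 lower in MDA-MB-468, beside 26.5% and 15.9%. PTPN2, a phosphatase of JAKs and STATs, had means of 37.9 FPKM (MDA-MB-468) and 7.59 FPKM (ZR75-1), and SOCS2 at 0.605 and 0.0169 FPKM. CISH, a SOCS family member induced by STAT5, was at 6.70 and 27.1 FPKM. The phosphatase PTPN6 was at 12.8 and 45.3 FPKM, and PIAS4 at 5.01 and 7.28 FPKM. The call of PIAS4 was lost with the replicate block (adjusted p = 0.0888) and held in 3 of 10 fits without 1 sample (adjusted p up to 0.153).

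Genes described as STAT3 targets passed in both directions between the lines. Of 35 tested, 11 were higher and 11 lower in MDA-MB-468 with DMSO, beside 26.5% and 15.9% of all genes. With PKC412 14 were higher and 12 lower, beside 37% and 21.6%. The medians were -0.13 and 0.21, beside 0.11 and 0.19 for all genes. NNMT had means of 18.8 FPKM (MDA-MB-468) and 0.0254 FPKM (ZR75-1), A2M at 20.9 and 0.148 FPKM, and the kinase PIM1 at 12.9 and 2.12 FPKM. The acute-phase gene SAA1 was at 105 and 3610 FPKM, the mucin MUC1 at 184 and 2010 FPKM and SERPINA3 at 131 and 1088 FPKM. For the agent, 2 of 35 passed in MDA-MB-468 and 2 in ZR75-1, beside 1.26% and 0.946% of all genes. The 2 in ZR75-1 were IL6 and LIF, which the cytokine list also holds. ICAM1, an adhesion molecule, rose in MDA-MB-468 from 18.3 and 20.0 to 56.9, 46.8 and 51.8 FPKM (1.39 ± 0.16, adjusted p = 0.00772), and in ZR75-1 it was at 8.39 and 9.25 against 8.90, 8.89 and 12.4 FPKM. BCL3 rose in MDA-MB-468 from 33.7 and 30.3 to 48.1, 51.1 and 54.8 FPKM (0.67 ± 0.12, adjusted p = 0.0401). The 2 responses of ICAM1 differed by 1.23 ± 0.23 and those of BCL3 by 0.87 ± 0.16, and neither passed (adjusted p = 0.103 and 0.107). ICAM1 lost its call with the replicate block (adjusted p = 0.683) and without either DMSO sample of MDA-MB-468 (adjusted p = 0.0831 and 0.0521), and BCL3 also after rescaling (0.34, adjusted p = 0.501) and in 8 of 10 fits without 1 sample (adjusted p up to 0.211). Both genes are also described as targets of NF-kappaB.

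Of 12 tested genes described as targets of STAT5 or STAT6, 2 were higher and 5 lower in MDA-MB-468 with DMSO, beside 26.5% and 15.9% of all genes, and 4 and 7 with PKC412, beside 37% and 21.6%. GATA3 had means of 5.27 FPKM (MDA-MB-468) and 52.2 FPKM (ZR75-1), CCND1 at 29.3 and 168 FPKM and CCL17 at 0.255 and 4.80 FPKM. GATA3 is also a luminal marker, and PIM1, CISH, BCL2L1 and CCND1 stand in the STAT3 list too. None of the 12 passed for the agent, beside 1.26% of all genes in MDA-MB-468 and 0.946% in ZR75-1.

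**Figure D5:**
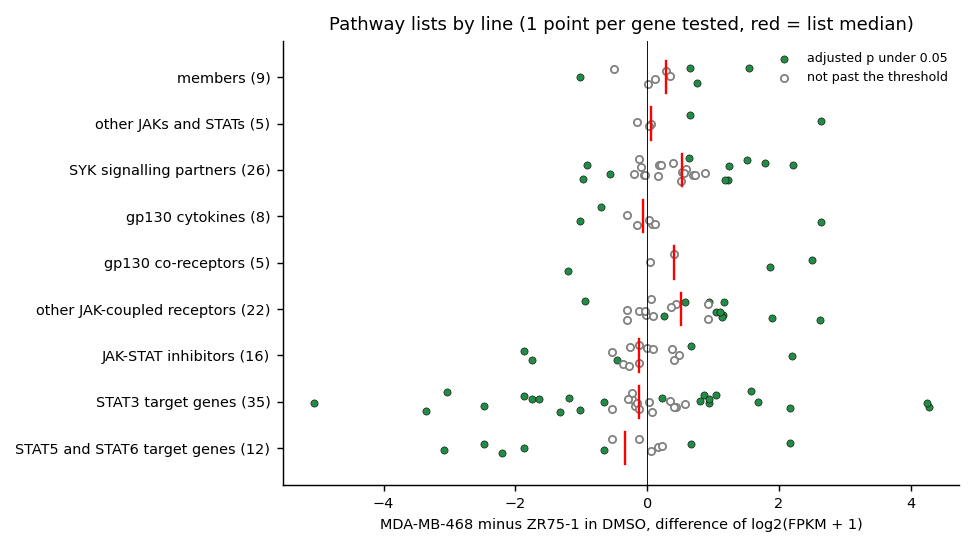
Difference in log2(FPKM + 1) between MDA-MB-468 and ZR75-1 in DMSO (horizontal axis) for each tested gene of the members and of 8 pathway lists (number tested in parentheses). Filled points passed an adjusted p of 0.05, and red bars are list medians. The STAT3 targets spread to both sides, with 11 genes passing on each, while the inhibitors and co-receptors hold single genes far to either side.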

How the data were processed

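RNA of the 10 samples was sequenced by the authors, and the submitters' processing notes name CASAVA 1.82, TopHat2 and hg19, while the annotation behind the gene symbols is not given in the sources used here. The deposited values are FPKM per gene, 1 file per sample, and were not renormalized for the main results. Members and gene lists were chosen with earlier results of these data known. Triplicates are stated in the methods of the study, while each line has 2 DMSO samples here. Nothing in the labels says that samples are separate cultures, so p-values measure the spread between these samples, which may be technical.

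Every comparison came from 1 limma fit (version 3.58.1, R 4.3.3) to log2(FPKM + 1), a scale on which the changes of low genes are understated. The fit had 1 mean per group, eBayes with trend and Benjamini-Hochberg adjustment at 0.05 over 16071 genes with a mean FPKM above 0.1 in a group (6 residual degrees of freedom). Errors are SE from this fit. Ratios at 3-fold used mean FPKM above 0.1 in a treatment and no pseudocount. GC content and length came from GENCODE 29 by symbol (88.1% of genes), and the adjustment was a polynomial of degree 3 in each. The fit and the adjustment were tested on simulated data. Python 3.11.15 made the other tables. All 9 members were named. Of each list, genes past the threshold for PKC412 were named, as were up to 3 genes in each direction with the largest line difference in DMSO, at a mean FPKM above 1 in a group. The result of 1 listed gene is not reported here. A 50-base word counts as shared where it occurs, on either strand, in a GENCODE transcript of another gene.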

Additional observations from a re-analysis of the deposited data

How the results depend on the processing

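Alternatives were a pseudocount of 0.1, no filter on low FPKM, a mean FPKM above 1, median-ratio rescaling, adjustment for GC content and length, replicate numbers entered as a block, and each sample left out. The number of members past the threshold stayed 0 for the agent in both lines and for the difference of responses under all of them. SYK and STAT6 passed between the lines under all 16 in both agents. Between the lines, the count of 4 members fell to 2 in DMSO and 2 in PKC412 with median-ratio rescaling, and ranged from 3 to 4 and 3 to 5 with 1 sample left out. Members at 3-fold ranged from 0 to 2 in MDA-MB-468 and 0 to 1 in ZR75-1 with 1 sample left out.

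Same-numbered samples did not deviate together in every pair. The correlation of their deviations from the group means, over 7685 genes, was -0.688, -0.608, 0.123 and -0.627 between agents within a line. Between lines it was 0.846, 0.846, -0.249, 0.539 and -0.007. The 2 DMSO samples of a line deviate by equal and opposite amounts, so 0.846 is the same value given for both. Deviations within a group sum to 0, so these correlations cannot decide whether the numbers pair the samples. The main fit did not use the numbers. With the replicate block, 0 genes passed in MDA-MB-468, 0 in ZR75-1 and 0 for the difference of responses, and IL6ST in ZR75-1 was -0.12.

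Over all genes, 202 passed in MDA-MB-468, 152 in ZR75-1 and 43 for the difference of responses. These counts were 116 and 27 (MDA-MB-468 and the difference of responses) with a pseudocount of 0.1, 68 (difference) with no filter, and 480, 479 and 190 after adjustment for GC content and length. With 1 sample left out they ranged from 65 to 324, 59 to 183 and 16 to 64. At 3-fold, 1078 and 596 genes became 237 and 186 with a pseudocount of 1, 2836 and 2742 with no filter, 613 and 295 with a mean FPKM above 1, and 630 in MDA-MB-468 after adjustment for GC content and length, with a range of 646 to 2136 and 490 to 2197 with 1 sample left out. With rescaling, 38.5% of the genes past the threshold in MDA-MB-468 were higher with PKC412 (55% without), and 52.3% and 50% of those between the lines were higher in MDA-MB-468 in DMSO and PKC412 (62.5% and 63.1% without). After adjustment for GC content and length 61.6% in ZR75-1 (78.9% without) and 38.4% for the difference of responses (25.6% without) were higher.

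Directions turned only for members that did not pass. With rescaling, JAK2 and STAT3 between the lines in DMSO were -0.02 and -0.18, STAT3 in PKC412 -0.15, and STAT5A by agent in MDA-MB-468 -0.02. After adjustment for GC content and length, JAK2 and STAT3 between the lines in DMSO were -0.003 and -0.07, STAT3 by agent in ZR75-1 -0.04, and the difference of responses of STAT5A 0.02. With 1 sample left out, the line difference in DMSO ranged from -0.03 to 0.60 for JAK1, -0.13 to 0.15 for JAK2 and -0.15 to 0.39 for STAT3. That in PKC412 ranged from -0.0003 to 0.38 for JAK2 and -0.08 to 0.03 for SOCS3. The difference by agent in ZR75-1 ranged from -0.01 to 0.52 for STAT3 and -0.12 to 0.55 for IL6ST. The difference of responses ranged from -0.01 to 0.37 for JAK2, -0.12 to 0.41 for STAT3, -0.15 to 0.01 for STAT5A and -0.27 to 0.40 for IL6ST. The causes were not tested. Read counts were not used, so no limit from depth could be given.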
